A study of Rattus norvegicus with 12 samples.

Results

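Apobec1 and Arl11 are 2 of the 4736 genes that could be named on an Affymetrix rat genome array, and each was measured by 1 probe set, L07114_at for Apobec1 (Entrez gene 25383) and rc_AI639107_at for Arl11 (Entrez gene 364396), out of 8740 probe sets analysed. They were chosen by the log2 signal of each treated array minus the control of its experiment, so the differences from control given here describe that choice and carry no test. The cultures were mixed glia from the brains of newborn rats, freed in part of microglia by adherence to plastic, and each was kept for 6 hours with a cytokine mixture or with additional medium. The Th1 mixture held interferon-g, g-CSF, IL-2 and TNF-a, the M/M (monocyte/macrophage) mixture held IL-12p40, TNF-a, IL1b and IL1a, and the Th2 mixture held porcine TGF-b1, IL-10, G-CSF and IL-5, each cytokine at 10 ng/ml. The sample labels leave out IL-6 from the M/M and IL-4 from the Th2 mixture, both of which the methods include. Control cultures were given medium with fetal bovine serum at 2%. Each of 3 separate experiments gave 1 culture and 1 array per group, so that 12 arrays were available, and this number limits the precision. Since RNA came from whole cultures, fewer cells of a type and less RNA per cell cannot be told apart.

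Apobec1 encodes the cytidine deaminase that edits cytidine to uridine in RNA. Its best known target is the mRNA of apolipoprotein B, in which editing creates a stop codon and a shorter protein in the small intestine, and in rat the enzyme also acts in liver. In mouse macrophages and microglia it edits many other mRNAs, mostly in the part after the coding sequence. Arl11, also called ARLTS1, encodes a small GTPase related to ADP-ribosylation factors that was described as a tumour suppressor in human, and in mouse macrophages it binds the ERK kinases and takes part in their activation.

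The RefSeq promoter sequences used here held 1 of the 2 genes, Apobec1, whose promoter is shown. The window is chr4:157487552-157487851 of GRCr8 on the minus strand, from 250 bases before to 50 bases after the annotated start, with a match to the PU.1 motif in capitals.

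Apobec1: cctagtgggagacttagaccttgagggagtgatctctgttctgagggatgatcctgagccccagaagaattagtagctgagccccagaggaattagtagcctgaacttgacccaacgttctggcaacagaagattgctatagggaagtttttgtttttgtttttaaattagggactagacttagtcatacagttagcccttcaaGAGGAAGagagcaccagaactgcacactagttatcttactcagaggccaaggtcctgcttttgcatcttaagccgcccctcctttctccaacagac

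PU.1 is a transcription factor of macrophages and microglia. Its motif, searched as GAGGAAG on both strands, begins 46 bases before the start, overlaps no other match, and is held by 12.4 percent of 33469 promoters of this length. The motifs GAS (TTCNNNGAA), AP-1 (TGANTCA), C/EBP (TTGCNNAA), the E-box of TFEB (CACGTG), NF-kappaB, ISRE and the STAT6 site, searched in the same way, have no match in this window, while between 1.53 and 10.6 percent of promoters hold one.

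Arrays of experiment 3 went against the order of the mixtures in experiments 1 and 2. Cd74, the invariant chain that interferon-gamma induces, was named after its values were seen. With Th1 cytokines its signal was 989, 344 and 3.70 in experiments 1, 2 and 3. With M/M cytokines it was 49.0, 10.5 and 1380, with Th2 cytokines at most 28.0, and in control cultures 41.1, 5.11 and 4.10. The high values thus belonged to the arrays labelled Th1 in experiments 1 and 2 and to the array labelled M/M in experiment 3. Ccl20, a chemokine that TNF and interleukin-1 induce, was also named after its values were seen, and had 88.0, 64.9 and 2345 with Th2 cytokines, against 129, 71.3 and 66.7 in control cultures. With Th1 cytokines Ccl20 had 1461, 670 and 14.1. With M/M cytokines Ccl20 had 3642, 1652 and 657. The Th1 and M/M arrays of experiments 1 and 2 were thus high for Ccl20. In experiment 3 the arrays labelled M/M and Th2 were high, and the array labelled Th1 was low. The array labelled Th2 in experiment 3 was high for Ccl20 and low for Cd74. This was also so for the M/M arrays of experiments 1 and 2, whereas the Th1 arrays of those experiments were high for both genes. Among probe sets with a mean log2 signal of at least 5, Apobec1 and Arl11 left out, 91 differed by at least 2-fold between Th1 and Th2 cytokines in the same direction in experiments 1 and 2, and in experiment 3 the difference was opposite for 86 of them. Differences of Apobec1 and Arl11 from control are therefore given over all 3 experiments and over experiments 1 and 2, and groups are named as labelled. Values of other genes and of gene lists are over all 3 experiments where nothing else is stated. Whether arrays of experiment 3 carry each other's labels was not tested, and if they do, the means over 3 experiments mix cytokine mixtures. Array medians were at least 56.0 on the treated arrays of experiment 2, against 38.4 on its control, and 24.5 to 42.2 on those of experiment 3, against 26.9. The treated arrays of experiment 2 were thus brighter as a whole than their control, as was the M/M array of experiment 3 (42.2). This enters each of their ratios that is not centred. The median log2 ratio of all probe sets was 0.617 on the M/M array of experiment 3, against 0.39 to 0.49 in experiment 2. Over 3 experiments the median log2 difference from control of all probe sets was 0.14 (Th1), 0.33 (M/M) and 0.19 (Th2).

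**Figure D1:**
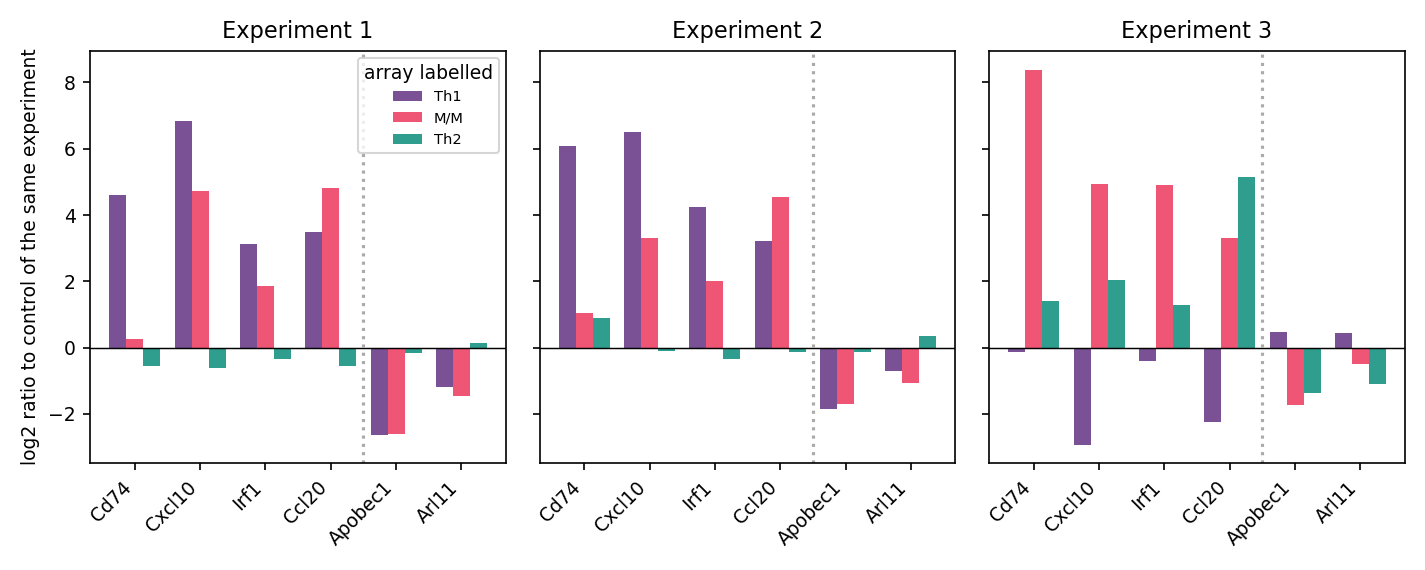
Log2 ratio of each treated array to the control of the same experiment, 1 panel per experiment, for 4 cytokine-induced genes and, right of the dotted line, Apobec1 and Arl11; colours give the mixture as labelled. Cd74 was high with Th1 cytokines in experiments 1 and 2 and with M/M cytokines in experiment 3, and the log2 ratio of Apobec1 with Th1 cytokines was -2.64, -1.86 and 0.46 in the 3 experiments.

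Apobec1 lay below control on all 3 arrays with M/M cytokines. Its signal was 133, 118 and 80.2 with M/M cytokines in experiments 1, 2 and 3, against 814, 381 and 266 in control cultures. The mean was 110.3 ± 27.2 with M/M cytokines, against 487 ± 289 in control cultures (SD, n = 3). Relative to its own control, each array had 0.163, 0.309 and 0.302, a mean log2 difference of -2.01 (SD 0.52, n = 3) or 4.04-fold lower, and -2.16 over experiments 1 and 2. After centring of the arrays on their medians the difference was -2.44. Only 3 of the 8740 probe sets had a lower mean log2 difference with M/M cytokines. Both Apobec1 and Arl11 were below control in 3 of 3 experiments with M/M cytokines, a pattern that 3.66 percent of all probe sets had.

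With Th1 cytokines the Apobec1 signal was 131, 105 and 366, against 814, 381 and 266 in control cultures. The arrays of experiments 1 and 2 were low and that of experiment 3 was above its control, so that the groups overlap (201 ± 144 with Th1 cytokines, against 487 ± 289 in control cultures, SD, n = 3). Relative to control these were 0.161, 0.276 and 1.38, and the mean log2 difference was -1.34 (SD 1.61, n = 3) over 3 experiments and -2.25 over experiments 1 and 2. Over experiments 1 and 2 all probe sets had a median of 0.21, and 8 probe sets had a lower mean difference than Apobec1. Of all probe sets, 5.72 percent were below control in 3 of 3 experiments with Th1 cytokines, which neither gene was.

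With Th2 cytokines the Apobec1 signal was 728, 350 and 102, against 814, 381 and 266 in control cultures. Here the arrays of experiments 1 and 2 were close to their controls, with ratios of 0.895 and 0.919, and the array of experiment 3 was low, with 0.383. The mean log2 difference was -0.56 (SD 0.72, n = 3) over 3 experiments, in which Apobec1 was below control each time, as were 6.46 percent of all probe sets. Over experiments 1 and 2 it was -0.14, beside a median of 0.19 for all probe sets, and after centring of the arrays it was -0.14 in experiment 1 and -0.67 in experiment 2. The group means were 393 ± 315 with Th2 cytokines, against 487 ± 289 in control cultures (SD, n = 3).

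Arl11 had a signal of 269.6, 263 and 193 with M/M cytokines in experiments 1, 2 and 3, against 750.0, 555 and 269.7 in control cultures. The highest M/M value is that of experiment 1 and lies just below the control of experiment 3. The ratios to control were 0.36, 0.474 and 0.716, a mean log2 difference of -1.01 (SD 0.50, n = 3) or 2.02-fold lower, -1.28 over experiments 1 and 2, and -1.44 after centring of the arrays. Of all probe sets, 109 had a lower mean difference. Arl11 averaged 242 ± 42.3 with M/M cytokines, against 525 ± 241.5 in control cultures (SD, n = 3).

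With Th1 cytokines Arl11 had 331, 337 and 365, against 750.0, 555 and 269.7 in control cultures. As deposited, the Th1 arrays were close to each other (344 ± 18.6, SD, n = 3). Relative to the median log2 signal of its array, Arl11 stood at 2.54, 2.46 and 3.90 with Th1 cytokines, against 3.66, 3.85 and 3.33 in control cultures, and here the Th1 arrays were further apart than the control arrays. The ratios of 0.441, 0.607 and 1.35 to control gave a mean log2 difference of -0.49 (SD 0.83, n = 3) over 3 experiments and -0.95 over experiments 1 and 2. With Th2 cytokines the Arl11 signal was 819, 699 and 125, against 750.0, 555 and 269.7 in control cultures. The arrays of experiments 1 and 2 were above control, by ratios of 1.09 and 1.26, and that of experiment 3 was below, with 0.465. The mean log2 difference of Arl11 with Th2 cytokines was -0.21 (SD 0.78, n = 3) over 3 experiments and 0.23 over experiments 1 and 2. After centring of the arrays it was 0.15 in experiment 1, -0.21 in experiment 2 and -0.03 over both, so that the direction in experiment 2 turned with the scaling.

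**Figure D2:**
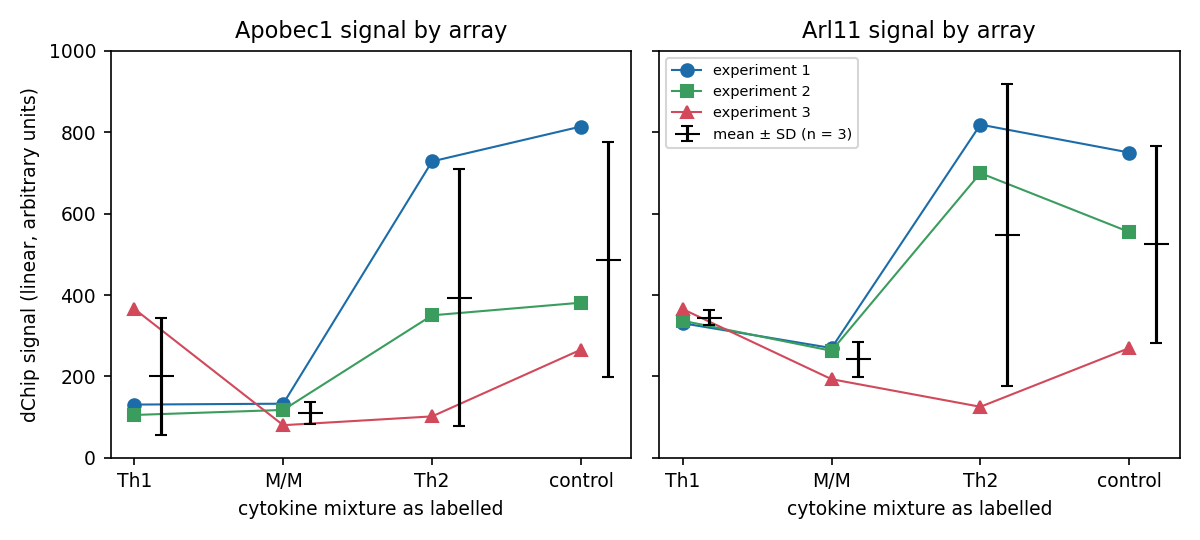
Signal of Apobec1 (left) and Arl11 (right) on each array on a linear scale from 0, by group as labelled; points joined by a line belong to 1 experiment, and the black marks beside them are the mean and SD of 3 arrays. The M/M arrays lie between 80.2 and 133 for Apobec1 and between 193 and 269.6 for Arl11, and in experiment 3 the Th1 array is above control and the Th2 array below it for both genes.

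Apobec1 and Arl11 were low on the same 6 arrays and high on the other 6. In experiments 1 and 2 the order of the groups for Arl11 was Th2, control, Th1 and M/M from high to low, and for Apobec1 control, Th2, M/M and Th1. In experiment 3 both genes were highest on the array labelled Th1 and next on the control array. With log2 signals centred on the mean of each experiment, the arrays fell into 2 clusters, below 0 for both genes (6 arrays) and above 0 for both (6 arrays), and the Pearson correlation of 0.93 over 12 arrays rests on the gap between them. Within the low cluster it was -0.15 and within the high cluster 0.623. These values are a description, since both genes were chosen for their course. The log2 ratio to control was larger in size for Apobec1 than for Arl11 on 8 of 9 treated arrays, the Th2 array of experiment 2 being the exception.

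**Figure D3:**
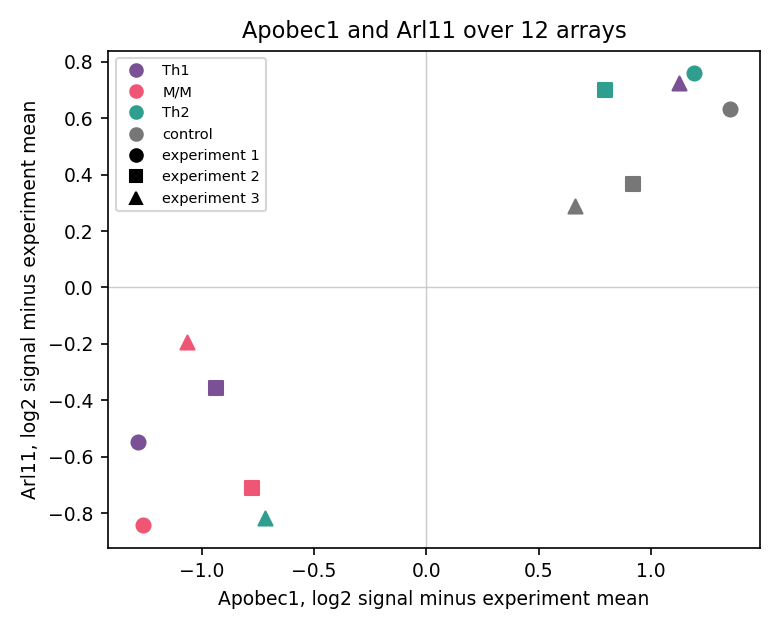
Log2 signal of Arl11 against that of Apobec1 on 12 arrays, each minus the mean of its experiment; colour gives the group as labelled and shape the experiment. The points form a low and a high cluster of 6 arrays each, and the array labelled Th1 of experiment 3 lies with the control arrays while the array labelled Th2 of experiment 3 lies with the M/M arrays.

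The mixtures were also set against each other within each experiment. Since a difference between mixtures is the difference of values that chose the genes, it is given for Apobec1 and Arl11 as a description with no test. For Apobec1 the M/M minus Th2 difference on the log2 scale was -2.45, -1.57 and -0.34 in experiments 1, 2 and 3, with a mean of -1.46 (SD 1.06, n = 3), so that Apobec1 was lower with M/M cytokines each time. The Th1 minus Th2 difference of Apobec1 was -2.48, -1.73 and 1.85, with a mean of -0.79 (SD 2.31, n = 3) over 3 experiments and -2.10 over experiments 1 and 2, and its direction turned in experiment 3. The Th1 and M/M arrays of experiments 1 and 2 were close for Apobec1, with Th1 minus M/M differences of -0.02 and -0.16, whereas the difference was 2.19 in experiment 3.

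For Arl11 the M/M minus Th2 difference was -1.60, -1.41 and 0.62 in experiments 1, 2 and 3, with a mean of -0.80 (SD 1.23, n = 3) over 3 experiments and -1.51 over experiments 1 and 2. The Th1 minus Th2 difference of Arl11 was -1.31, -1.06 and 1.54, with a mean of -0.27 (SD 1.58, n = 3). Both turned in experiment 3. The Th1 minus M/M difference of Arl11 was 0.29, 0.36 and 0.92, with a mean of 0.52 (SD 0.34, n = 3), and the lowest Th1 array (331) lay above the highest M/M array (269.6). In the order of mean signal, Th2, Th1 and M/M for both genes, Arl11 thus had Th1 and M/M arrays apart in signal, while its Th2 and Th1 arrays overlapped, as did those of each neighbouring pair of mixtures for Apobec1. The share of all probe sets with Th1 and M/M arrays apart in signal was not counted. Over all probe sets, limma called 0 percent of 8740 in each of the 3 contrasts between mixtures, with 253 (Th1 against M/M), 162 (Th1 against Th2) and 343 (M/M against Th2) at an unadjusted p under 0.05.

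Among 4075 probe sets with 1 gene symbol and a mean log2 signal of at least 5, Vsir had the course most like both genes, with a Pearson correlation of signals centred on the experiment mean over 12 arrays of 0.979 with Apobec1 and 0.973 with Arl11. Vsir encodes VISTA, an immune checkpoint protein of myeloid cells. Its signal was 98.3, 80.5 and 85.0 with M/M cytokines, against 349, 173 and 148.5 in control cultures. It had 100.1, 72.3 and 215 with Th1 cytokines and 340.0, 219 and 69.4 with Th2 cytokines. Like Apobec1 and Arl11, Vsir was high on the array labelled Th1 and low on the array labelled Th2 in experiment 3. Tagln3, for a transgelin known from neurons, came next for both genes, with Apobec1 and Arl11 themselves left out of the ranking (0.911 with Apobec1 and 0.926 with Arl11), with 57.2, 78.2 and 90.4 with M/M cytokines, against 134, 141 and 136 in control cultures. The other genes nearest to Apobec1 were St3gal5 (0.87), the sialyltransferase that makes ganglioside GM3, Map3k1 (0.845), a kinase upstream of JNK, and Tbxas1 (0.841), thromboxane synthase of platelets and macrophages. Those nearest to Arl11 were Rnf130 (0.903), a ubiquitin ligase, and Cxcr4 (0.898 and 0.885 at its probe sets rc_AA945737_at and U90610_at), the receptor of the chemokine CXCL12. A correlation does not give the size of a change. With M/M cytokines the mean log2 difference was -0.97 for St3gal5, -0.29 for Map3k1, -0.21 for Tbxas1 and -0.19 for Rnf130. For Cxcr4 it was -1.115 at rc_AA945737_at and -0.25 at U90610_at. Cxcr4 at rc_AA945737_at had 24.5, 44.7 and 27.1 with M/M cytokines, against 101.7, 45.6 and 64.9 in control cultures, and 157, 99.0 and 14.1 with Th2 cytokines. In experiment 2 its M/M and control arrays were thus close, unlike those of Apobec1 and Arl11.

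**Figure D4:**
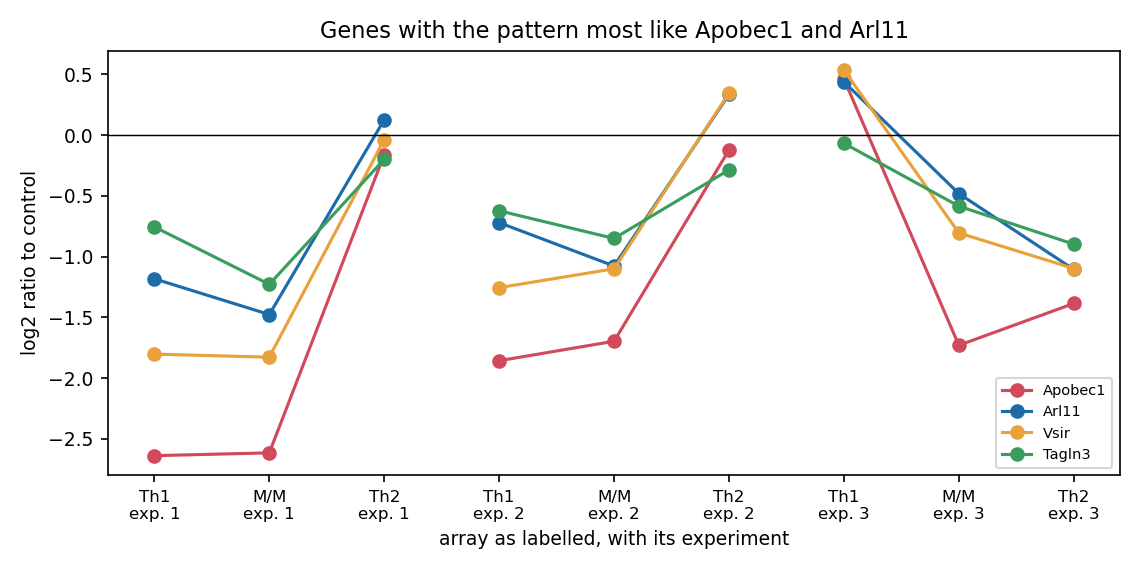
Log2 ratio to the control of the same experiment on the 9 treated arrays, ordered by experiment and mixture as labelled, for Apobec1, Arl11 and the 2 genes most like them, Vsir and Tagln3; lines join the arrays of 1 experiment. All 4 genes were lower with M/M than with Th2 cytokines in experiments 1 and 2, and in experiment 3 the array labelled Th1 was the highest for each.

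Genes of the editing pathway were then examined. Of 12 proteins reported to bind APOBEC1 or its editing site, 4 had a probe set, namely the RNA-binding proteins Hnrnpab, Hnrnpc, Hnrnpd and Celf2, and 4 had a positive log2 difference with each mixture, of which 0 passed the test. Hnrnpab had 1202, 1618 and 1411 on average with Th1, M/M and Th2 cytokines, against 976 in control cultures, and its log2 fold change with M/M cytokines did not pass (adjusted p = 0.134 by limma). The log2 medians of these 4 genes were 0.29 (Th1), 0.49 (M/M) and 0.27 (Th2), beside 0.14, 0.33 and 0.19 for all probe sets. Among other deaminases of bases or nucleotides 5 of 15 were measured and 0 passed. The brightest was Adar, the enzyme that edits adenosine in double-stranded RNA, with 73.4, 83.1 and 46.9 on average, against 38.9 in control cultures, and after it came the AMP deaminases Ampd3 and Ampd1 and the editing enzyme Adarb1. With M/M cytokines the median of these 5 genes was 0.84, beside 0.33 for all probe sets, and 0.42 after centring of the arrays. This median is the value of Ampd1, which was dim, with 28.1 on average with M/M cytokines, against 15.8 in control cultures. Adarb1 and Adarb2 were dimmer still, with 5.42 and 4.71, against 4.87 and 6.08.

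Transcripts reported as edited by APOBEC1 in mouse or human were measured for 10 of 16 genes. Of these, 6 (Th1), 10 (M/M) and 5 (Th2) lay above control, and 0 passed the test. Their medians were 0.11, 0.38 and 0.0007, beside 0.14, 0.33 and 0.19 for all probe sets. After centring of the arrays these 10 genes had medians of -0.05, -0.05 and -0.21. Apob itself, the classical target, had 25.9, 30.5 and 25.7 on average, against 26.9 in control cultures. B2m, the light chain of MHC class I, had 1893 and 2069 with Th1 and M/M cytokines, against 982 in control cultures (adjusted p = 0.857 and 0.22 by limma). The precursor of beta amyloid App, the lysosomal membrane gene Lamp2 and the annexin Anxa5 were the other bright ones, with M/M means of 1679, 1226 and 908, against 1442, 1013 and 683 in control cultures. Arrays measure the amount of a transcript, so that editing itself was not observed.

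The family of Arl11 was measured in part. Of 25 ARF and ARL GTPases 11 were measured, and 8 (Th1), 11 (M/M) and 8 (Th2) of them lay above control, with medians of 0.29, 0.38 and 0.31, while 0 passed. All probe sets had medians of 0.14, 0.33 and 0.19, and after centring of the arrays the GTPases had 0.13, -0.05 and 0.10. Over experiments 1 and 2 the GTPases had 0.309, 0.0473 and 0.265, beside 0.21, 0.18 and 0.19 for all probe sets. Arf4 had 1099, 1366 and 1163 on average, against 940.3 in control cultures. Arf1 and Arf5, which act in vesicle formation at the Golgi like Arf4, and Arf6, which acts at the plasma membrane, had M/M means of 833, 620 and 828, against 710.0, 437 and 569.7 in control cultures. Among 27 regulators and partners of these GTPases 12 were measured, 10 of them were above control with M/M cytokines, and 0 passed with any mixture. Their median with M/M cytokines was 0.23, beside 0.33 for all probe sets, and -0.20 after centring of the arrays. The coatomer subunit Copb1 averaged 427 with M/M cytokines, against 425 in control cultures, and Arfgap2, a GTPase activator, had 440.0, against 377. Cyth2, an exchange factor, had 329.5 with M/M cytokines, against 307 in control cultures, and Rab7a, a GTPase of late endosomes, had 335, against 357, although its mean log2 difference was positive (0.13).

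Markers of microglia and macrophages, the cells in which both genes are known to act, were measured for 19 of 36 genes. Of the 19, 17 (Th1), 15 (M/M) and 17 (Th2) lay above control. The median log2 difference was 0.31, 0.39 and 0.30 in this order, or 0.15, -0.04 and 0.09 after centring of the arrays. Over experiments 1 and 2 it was 0.16, 0.00016 and 0.15, beside 0.21, 0.18 and 0.19 for all probe sets. The summed signal of the markers lay between 12069 and 22404 with Th1, between 16633 and 22599 with M/M and between 14338 and 21227 with Th2 cytokines, against 8864 to 20260.15 in control cultures. As deposited, it was above control with every mixture within each experiment. The sum includes Cd14 and Cd74, which cytokines induce. Without these, a choice made after seeing the data, the sum of the other 17 genes was 18693 with Th1 and 19117 with M/M cytokines in experiment 1, against 19446 in control cultures, and these 2 of 9 treated arrays then lay below control. None of the 19 markers was at 0 on any array. In experiments 1 and 2, however, at most 3 of 8740 probe sets were below 1 on an array, so this does not show expression. Itgam was dim, with 11.7, 13.5 and 15.1 on average, against 9.76 in control cultures. Lyz2, the lysozyme of macrophages, had 2713, 3294 and 2975 on average, against 2428 in control cultures, and the protease Ctss, the lectin Lgals3 and the complement chain C1qb had M/M means of 2750.0, 2354 and 2594, against 2458, 2293 and 1962. Cd14, the lipopolysaccharide coreceptor, was the 1 marker that passed, and it rose with M/M cytokines (log2 fold change 2.55, adjusted p = 0.0486 by limma), among the 0.263 percent of probe sets that rose. For Th2 cytokines 0.0114 percent of probe sets rose, for Th1 cytokines 0 percent, and 0 percent fell with any mixture. Without the replicate block, or with arrays centred, 0 probe sets passed with M/M cytokines.

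Genes of resting microglia were measured for 7 of 24. With M/M cytokines their median was 0.08 over 3 experiments and -0.20 over experiments 1 and 2, beside 0.33 and 0.18 for all probe sets. After centring of the arrays it was -0.35 over 3 experiments, and 0 passed. The transcription factor gene Irf8 had 489, 744 and 314 on average with Th1, M/M and Th2 cytokines, against 298 in control cultures. Its M/M mean rests on experiment 3, with 391, 272 and 1567 in experiments 1, 2 and 3, against 546, 241 and 107 in control cultures. Gas6, a ligand of the receptor MERTK, had 307, 279 and 342, against 430.1 in control cultures. Cx3cr1, the fractalkine receptor, had 97.2, 81.1 and 94.6, against 94.5, and the purinergic receptor P2ry12 had 44.1, 41.5 and 86.5, against 61.4. Astrocyte, oligodendrocyte, fibroblast and endothelial markers were measured for 10, 10, 8 and 4 genes, neuron markers for 7 and intestinal epithelium markers for 7, and 0 of them passed with any mixture. With M/M cytokines their medians over 3 experiments were 0.33, 0.17, 0.28, 0.01, 0.48 and -0.09 in that order. Over experiments 1 and 2 they were 0.125, 0.0257, 0.316, -0.257, 0.0729 and -0.0276, beside 0.18 for all probe sets. Vim, Glul, Sparcl1 and Slc1a3 were the brightest of the astrocyte list, Mbp, Cnp, Mag and Ugt8 of the oligodendrocyte list, Fn1, Col1a1, Col1a2 and Col3a1 of the fibroblast list, Flt1, Vwf, Pecam1 and Kdr of the endothelial list, and Gap43, Snap25, Nefl and Syp of the neuron list. Slc5a1, Alpi, Lct and Cdh17 were the brightest of the intestinal list, and Fabp1 and Fabp2 of the same list had at most 4.26 on average in any group.

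**Figure D5:**
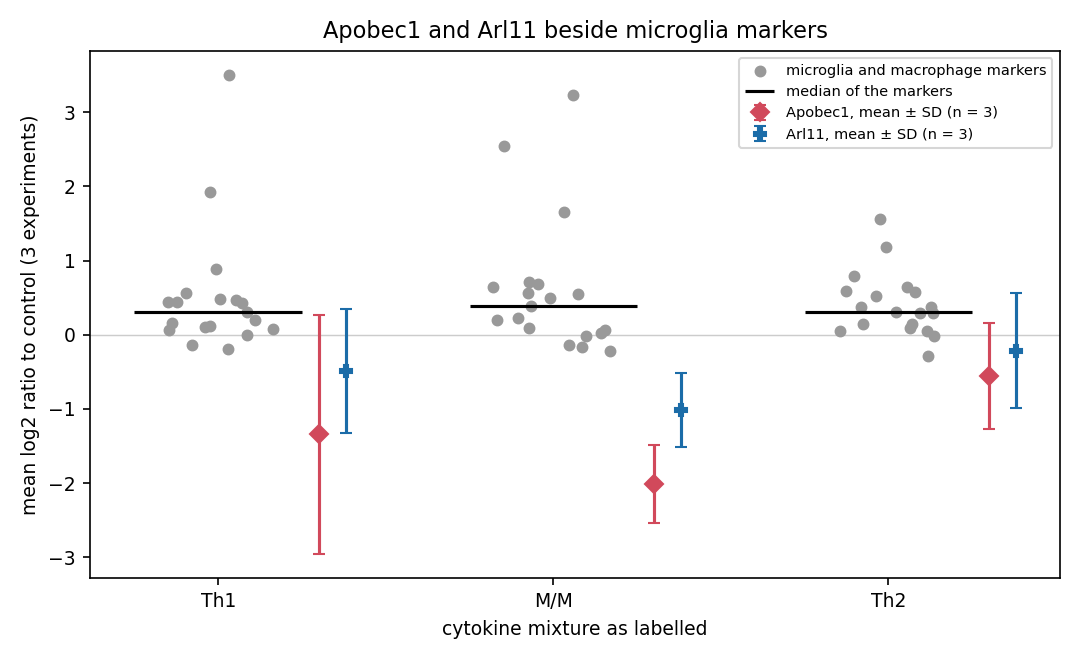
Mean log2 difference from control over 3 experiments, by mixture as labelled, for 19 microglia and macrophage markers (grey points, black line at the median) and for Apobec1 and Arl11 (mean and SD, n = 3). With M/M cytokines the markers have a median of 0.39 and a lowest value of -0.22, whereas Apobec1 lies at -2.01 and Arl11 at -1.01.

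Of 30 genes known to be induced by TNF, interleukin-1 or interferon, 24 were measured, and with M/M cytokines 24 were above control, with a median of 2.60, and 5 rose by limma, namely the chemokine Ccl2, the superoxide dismutase Sod2, the transcription factors Junb and Cebpb and the tetrahydrobiopterin enzyme Gch1. Ccl2, Icam1, Sod2 and Irf1 were the brightest, and Ccl2 averaged 5400.0 with M/M cytokines, against 822 in control cultures (adjusted p = 0.015). Over experiments 1 and 2 the median of these 24 genes was 2.12 (Th1), 2.41 (M/M) and 0.36 (Th2), and in experiment 3 it was -0.12, 3.16 and 2.07. The arrays with the higher medians, Th1 and M/M of experiments 1 and 2 and those labelled M/M and Th2 of experiment 3, are the 6 on which Apobec1 and Arl11 lay furthest below control. The part of this response in the levels of Apobec1 and Arl11 was not tested.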

How the data were processed

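RNA of 12 cultures was hybridised to Affymetrix rat genome arrays, 1 per culture, and the deposited intensity values are linear probe-set signals that the authors calculated with dChip, with settings and normalization between arrays not given in the sources used here. The series holds no values of other samples. Groups were taken from the sample titles, whose code names the experiment and pairs each treated array with its control, so experiment was a replicate block. Signals below 0.1 were set to 0.1, log2 was taken, and 59 control probe sets were left out. All 4 groups were fitted with limma (version 3.58.1, R 4.3.3) with a variance trend, with Benjamini-Hochberg adjustment across 8740 probe sets and a threshold of 0.05. The fit was tested on simulated data. Gene symbols came from the platform annotation, with 1 symbol for 7006 probe sets, several for 308 and none for 1426. Genes of a list are given by their brightest probe set.

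The p values of Apobec1 and Arl11 are not given, since their values chose them. Both genes and the lists were chosen with earlier results of these data known. Named are the 4 brightest genes of each of 14 lists, any that passed, and the 5 probe sets most correlated with each gene. Apob, Itgam, Fabp1 and Fabp2 were named outside this rule, as were Cd74 and Ccl20. Alternatives were no block, quantile normalization, centring, a floor of 1, log2 of signal plus 16, only probe sets with a mean log2 signal of at least 5, no variance trend, and each replicate or array left out. Leaving out the Th1 and Th2 arrays of experiment 3, splits by experiment, centred list medians and the microglia sum without Cd14 and Cd74 were added after seeing the data.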

Additional observations from a re-analysis of the deposited data

How the results depend on the processing

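Over all arrays, the mean log2 differences of Apobec1 and Arl11 from control stayed below 0 with every mixture under every normalization and offset tried. A floor of 1 could not change them, since the lowest signal of either gene was 80.2. These differences chose the genes, so their sign is a description. With 1 replicate or array left out, the log2 differences from control of Apobec1 ranged from -2.34 to -0.70 with Th1, from -2.22 to -1.71 with M/M and from -1.07 to 0.21 with Th2 cytokines, and those of Arl11 from -1.01 to -0.14, from -1.28 to -0.78 and from -0.58 to 0.47. The positive Th2 values came without the Th2 array of experiment 3 (0.21 and 0.47) and, for Arl11, without replicate 3 (0.23). Between mixtures the ranges for Apobec1 were -0.32 to 1.28 (Th1 minus M/M), -2.10 to 0.056 (Th1 minus Th2) and -2.22 to -0.94 (M/M minus Th2), and for Arl11 0.00036 to 0.85, -1.18 to 0.24 and -1.51 to -0.39. Without the Th1 and Th2 arrays of experiment 3, chosen after seeing that they go against experiments 1 and 2, Arl11 lay 0.36 above control with Th2 cytokines, and Apobec1 had -0.16 for Th1 minus M/M, -2.10 for Th1 minus Th2 and -1.94 for M/M minus Th2. The probe sets called over the whole array then numbered 81 (Th1), 184 (M/M) and 2 (Th2) against control, 32 for Th1 against Th2 and 31 for M/M against Th2, where 0, 23, 1, 0 and 0 passed over all arrays. Without the replicate block limma called 0 for M/M and 0 for Th2 cytokines against control, as with quantile normalization, centring or no variance trend, and M/M cytokines had 14 with log2 of signal plus 16 and 57 with the filter on dim probe sets. With 1 replicate or array left out the calls ranged from 0 to 82 (Th1), 0 to 183 (M/M) and 0 to 3 (Th2) against control, and from 0 to 41 for Th1 against Th2, 0 to 23 for M/M against Th2 and 0 to 0 for Th1 against M/M. The cause was not tested. Leaving out the replicate block could not change the differences of Apobec1 and Arl11, since each experiment held 1 array per group.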
